A study of Caenorhabditis elegans with 2 samples.

Results

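In Caenorhabditis elegans, 290 of the 612 nuclear tRNA genes in Ensembl WBcel235 lay fully within the span of a protein-coding gene on either strand. ZTF-16-GFP chromatin immunoprecipitation placed a peak summit of the list thresholded by the irreproducible discovery rate (IDR) at 75 of them. A tRNA gene was called occupied in a peak list when a summit of that list lay within 200 bp of it. Where no list is named, occupied refers to the IDR-thresholded list. The 290 genes sat in 226 host genes. All of them were intronic in every host except 7, which touched an exon of a host, and 167 were transcribed in the same direction as their host while 123 ran opposite to it. The other 322 nuclear tRNA genes were not inside a protein-coding gene, and 3 of these overlapped one in part.

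The 2 libraries were biological replicates of 1 condition. Strain OP558, with the genotype unc-119(tm4063) III and the integrated transgene wgIs558, expresses ZTF-16, a C2H2 zinc-finger protein, with GFP and FLAG at its C terminus. The chromatin came from pooled male and female late embryos, collected whole 5 hours after egg bleaching had synchronized them, and was sheared by sonication and precipitated with an antibody to GFP. Whole embryos mix all cell types, there was no untagged or mutant group, and neither an input track nor a library of another factor was analysed here.

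Transfer RNA genes are transcribed by RNA polymerase III from promoters that lie inside the gene. The A box and the B box are bound by the factor TFIIIC, which places TFIIIB just upstream of the start, and a run of T on the coding strand ends transcription. Worm tRNA genes are short, often lie in introns, and occur in families of identical copies, so that each anticodon is served by many loci.

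The sequences that show the promoter elements beside the outcome are printed below, 5′ to 3′ along the tRNA gene, with 60 bases upstream and 15 bases downstream of it, from the RefSeq genome of WBcel235, the assembly that ce11 names. Capitals mark the A box core TNGNNNAG, the B box core GTTCNANNC, the first TTTT after the gene and, within the 60 upstream bases, CTCTC or its complement GAGAG. F15G9.t1, an alanine tRNA gene in him-4 (chrX:9743529-9743675, plus strand), C06G1.t1, a histidine tRNA gene in C06G1.1 (chrX:16634815-16634961, minus strand), and C02B4.t2, a tyrosine tRNA gene with an intron of its own in nhr-17 (chrX:12665168-12665326, plus strand), had the highest signal of the intronic members that qualified for printing by chromosome and by copies elsewhere. R04A9.t1 in ZK1193.2 (chrX:410331-410477, plus strand) had an IDR-thresholded summit, while H08J11.t4 in ajm-1 (chrX:9091082-9091228, minus strand) had none in any list. Both hold the same glutamine tRNA gene base for base. ZK563.t1 in ZK563.2 (chrX:3371407-3371553, minus strand) and R04D3.t5 in cyp-14A4 (chrX:13283622-13283768, minus strand) form the same contrast for a threonine tRNA gene, and their boxes can be compared letter for letter.
F15G9.t1: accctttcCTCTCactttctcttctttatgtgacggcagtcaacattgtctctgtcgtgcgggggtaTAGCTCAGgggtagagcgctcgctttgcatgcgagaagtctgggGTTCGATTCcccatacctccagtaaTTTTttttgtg
C06G1.t1: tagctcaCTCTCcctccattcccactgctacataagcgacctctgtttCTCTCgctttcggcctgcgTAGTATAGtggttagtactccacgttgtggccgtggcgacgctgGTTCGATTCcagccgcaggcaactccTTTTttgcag
C02B4.t2: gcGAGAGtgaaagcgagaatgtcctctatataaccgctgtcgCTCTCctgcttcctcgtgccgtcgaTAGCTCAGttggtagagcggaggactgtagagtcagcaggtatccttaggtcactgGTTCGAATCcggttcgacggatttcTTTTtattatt
R04A9.t1: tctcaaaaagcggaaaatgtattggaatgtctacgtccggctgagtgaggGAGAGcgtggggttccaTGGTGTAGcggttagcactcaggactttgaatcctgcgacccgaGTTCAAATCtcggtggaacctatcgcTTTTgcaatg
H08J11.t4: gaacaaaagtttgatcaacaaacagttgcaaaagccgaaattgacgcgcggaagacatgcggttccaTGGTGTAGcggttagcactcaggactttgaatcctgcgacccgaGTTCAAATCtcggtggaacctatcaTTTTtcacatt
ZK563.t1: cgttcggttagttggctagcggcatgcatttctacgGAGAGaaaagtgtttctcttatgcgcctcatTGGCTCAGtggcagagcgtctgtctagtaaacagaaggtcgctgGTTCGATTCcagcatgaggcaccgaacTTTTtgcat
R04D3.t5: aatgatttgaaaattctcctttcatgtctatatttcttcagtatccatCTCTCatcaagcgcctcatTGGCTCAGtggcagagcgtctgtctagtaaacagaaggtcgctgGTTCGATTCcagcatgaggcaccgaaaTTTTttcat

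The IDR-thresholded list held 822 peaks. It placed a summit within 200 bp of 75 of the 290 tRNA genes inside protein-coding genes. That share was 25.9% (Wilson 95% interval 21.2 to 31.2), beside 27.6% of all nuclear tRNA genes. Among the tRNA genes not inside a protein-coding gene the share was 29.2% (94 of 322, interval 24.5 to 34.4), and the 2 intervals overlapped. Windows of 73 bp, the median length of a member, that lay inside protein-coding genes over 1000 bp from any tRNA gene had such a summit in 0.157% of 60951052 positions. Both shares stood far above that of the windows. The intervals cover counting error over genes alone, tRNA genes share sequences and neighbours, and no test was made between the sets, since the study has a single condition.

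The relaxed lists, which hold background entries by design, covered more of the genes. The pooled list of 14968 peaks had a summit at 171 of the 290 tRNA genes inside protein-coding genes (59.0%, interval 53.2 to 64.5), against 54.3% of those not inside and 56.5% of all nuclear tRNA genes. The replicate 1 list of 21235 peaks reached 178 (61.4%), against 56.2% of those not inside and 58.7% of all. The replicate 2 list of 18242 peaks reached 153 (52.8%), against 52.8% of those not inside and 52.8% of all. Any of the 4 lists had a summit at 199 (68.6%), against 63.4% of those not inside and 65.8% of all, and both replicate lists had one at 138 (47.6%), against 45.7% of those not inside and 46.6% of all. The windows away from tRNA genes had a summit at 6.26% in the pooled list, 9.29% in replicate 1, 7.82% in replicate 2 and 15.2% in any list.

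**Figure D1:**
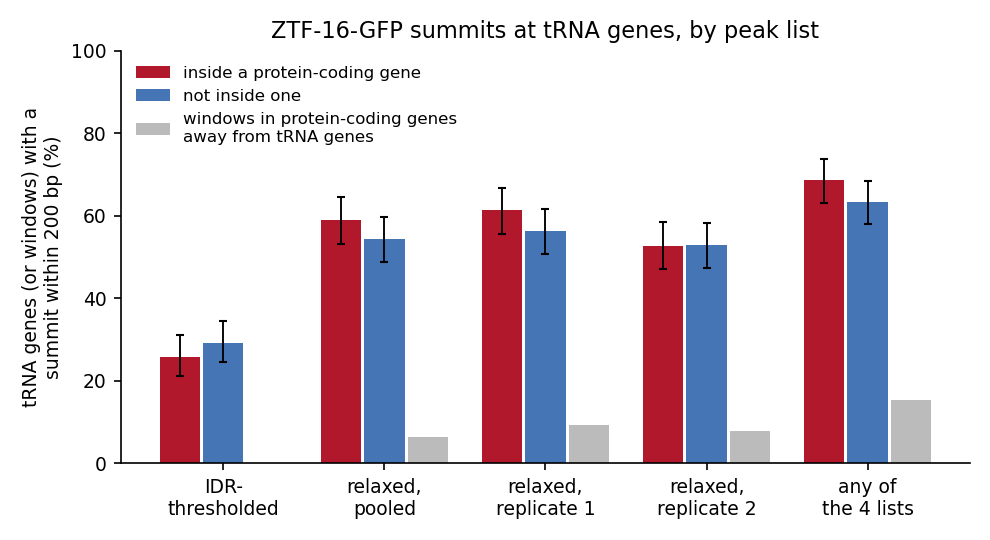
Share of tRNA genes with a peak summit within 200 bp, in percent, for the 290 genes inside a protein-coding gene (red) and the 322 not inside one (blue), by peak list, with Wilson 95% intervals as error bars; grey bars are 73-bp windows inside protein-coding genes away from tRNA genes. The red and blue bars lie close together in every list, at 25.9% and 29.2% in the IDR-thresholded one, and the grey bar there, 0.157%, is too low to see.

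All 75 tRNA genes with an IDR-thresholded summit inside protein-coding genes were also in the pooled list and in both replicate lists. The relaxed lists are the input from which the IDR-thresholded list was made, so this overlap is largely by construction. A further 61 were in the pooled list and both replicate lists without passing the threshold, 19 were in the pooled and the replicate 1 list, 10 in the pooled and the replicate 2 list, and 6 in the pooled list alone. The remaining 28 with a summit were missed by the pooled list: 21 were in replicate 1 only, 5 in replicate 2 only and 2 in both. No list had a summit at 91. Occupied members with the same nearest summit in the IDR-thresholded and pooled lists had the same signal in both. The lowest signal in the IDR-thresholded list was 77.4, and the highest pooled signal of a member without such a summit was 77.1. Among tRNA genes not inside a protein-coding gene, 2 with an IDR-thresholded summit had none in the replicate 2 list. A place in the IDR-thresholded list thus did not require a summit within 200 bp in each replicate list.

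Of the 206 IDR-thresholded summits that fell in introns of protein-coding genes, 72 lay within 200 bp of a tRNA gene inside a protein-coding gene, or 35.0% (interval 28.8 to 41.7). Counting summits outside introns too, 78 of the 822 (9.49%) lay that close to a member. The nearest summits of the 75 occupied members were 75 different ones, so no pair of members had the same nearest summit. Only 7 of the 75 summits fell within the window of 1000 bp upstream to 200 bp downstream of the start of any protein-coding gene, and 4 of these in that of the host itself. Among the 74 hosts of occupied members, 0 had an IDR-thresholded summit in that window away from tRNA genes, against 3 of the 152 other hosts (1.97%) and 620 of all 19973 protein-coding genes (3.10%).

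Genes of other small RNAs inside protein-coding genes had IDR-thresholded summits less often by count, at 13.9% of 216 snoRNA genes, 4.76% of 63 snRNA genes, 1.89% of 106 miRNA genes and 0.017% of 5878 piRNA genes. These differences were not tested, and the classes differ in length, copy number and spacing.

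The signal value is the authors' peak-caller score and can be compared only within a list. In the IDR-thresholded list it had a median of 124 over the 75 members inside protein-coding genes (79.0 to 348), against 129 (77.4 to 363) over the 94 tRNA genes not inside one and 108 over all 822 peaks. In the replicate lists, the same 75 members had medians of 59.0 in replicate 1 and 64.9 in replicate 2, while all peaks had medians of 18.9 and 19.1. The threshold that selected the 75 was set on these same replicates, so this gap follows in part from the selection. Members found in relaxed lists only had a median of 24.2 in replicate 1 (n = 103) and 25.6 in replicate 2 (n = 78).

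Both replicates ranked the members found in both of their lists in a similar order. Over the 138 members with a summit in both, the Spearman correlation of the ranks was 0.776, a description over genes called against the same control file. The 138 leave out members missed by either replicate and include the 75 occupied ones, which a threshold on the same replicates had selected. By rank, 64 of the 75 occupied members stood among the best 822 peaks of replicate 1, 66 among those of replicate 2 and 55 among those of both. The least favourable ranks of the 75 were 9345 in replicate 1 and 6578 in replicate 2.

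**Figure D2:**
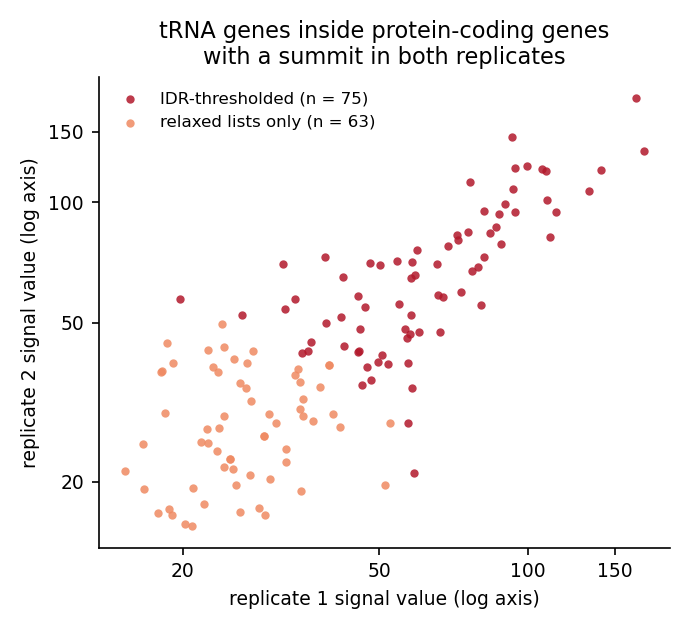
Peak-caller signal of the summit nearest to each tRNA gene inside a protein-coding gene in replicate 1 (horizontal, log axis) and replicate 2 (vertical, log axis), for the 138 genes with a summit in both; dark red points have an IDR-thresholded summit and orange points do not. The 75 dark red points, selected by a threshold set on the same replicates, lie to the upper right of most of the 63 orange ones.

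F15G9.t1, the alanine tRNA gene shown above in an intron of him-4, which encodes the extracellular matrix protein hemicentin, had the highest signal of the occupied members. Its signal was 348 in the IDR-thresholded list, 166 in replicate 1 and 182 in replicate 2, and the summit stood 33 bp into the gene. F15G9.t2, another alanine tRNA gene of the same host, had a summit of its own with a signal of 129, chosen for mention after its value was seen. him-4 was the only host with 2 occupied members.

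F41D9.t3, an asparagine tRNA gene opposite to its host sulp-3, a sulfate transporter family gene, followed with 306 in the IDR-thresholded list, 172 in replicate 1 and 134 in replicate 2. T21B4.t1, an isoleucine tRNA gene opposite to the collagen gene col-85, had 264, with 141 in replicate 1 and 120 in replicate 2. C28G1.t1, a glutamate tRNA gene in C28G1.2, had 238, with 133 in replicate 1 and 107 in replicate 2, and lay in an untranslated exon of its host. These 3 members ranked between 24 and 53 in the IDR-thresholded list.

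C37A2.t1, a cysteine tRNA gene in cye-1, which encodes cyclin E, had a signal of 237, with 93.0 in replicate 1 and 145 in replicate 2. sup-5, a tryptophan tRNA gene in fli-1, the worm flightless homologue that binds actin, had 229, with 109 in replicate 1 and 120 in replicate 2. Mutant alleles of sup-5 are known as amber suppressors, which read a stop codon as an amino acid. C06G1.t1, the histidine tRNA gene shown above, had 226, with 107 in replicate 1 and 121 in replicate 2. C02B4.t2, the tyrosine tRNA gene in the nuclear hormone receptor gene nhr-17, had 225, with 99.4 in replicate 1 and 123 in replicate 2. They ranked between 54 and 71 in the IDR-thresholded list.

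ZC455.t1, a serine tRNA gene in ZC455.1, had a signal of 223, and F15B9.t1, an alanine tRNA gene in the formin gene inft-2, had 210. The next 10 members by signal ran from 210 to 167 and included F29C4.t1 (arginine) in the collagen gene col-99, E03E2.t1 (serine) in cat-1, which encodes the vesicular monoamine transporter, F17H10.t1 (glycine) in the sorting nexin gene snx-17, F38G1.t2 (aspartate) in egl-17, an FGF gene, and K06A4.t1 (alanine) in swt-5, a sugar transporter gene. F33G12.t1 (isoleucine), K11H3.t2 (serine), R04A9.t1 (glutamine), ZK563.t1 (threonine) and C04A2.t1 (leucine) completed them. Their signals lay between 76.3 and 114 in replicate 1 and between 81.9 and 112 in replicate 2. Of the 20 members with the highest signal, 13 ran opposite to their host and 7 in the same direction. Among all occupied members 33 ran opposite and 42 in the same direction, and among all members 123 and 167. This difference was not tested.

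Among members without an IDR-thresholded summit, C17D12.t3, a leucine tRNA gene in spe-9, a gene of sperm function, had the highest pooled signal, 77.1, with 51.3 in replicate 1 and 19.7 in replicate 2. The proline tRNA genes W09D6.t1 and W09D6.t2 in rsa-2, a spindle assembly gene, shared a pooled summit of 76.6, with 39.5 in replicate 1 and 39.2 in replicate 2. K07C10.t1 (lysine) in ptr-13, a patched-related gene, had 74.6, with 52.5 in replicate 1 and 28.1 in replicate 2, and F53F8.t1 (cysteine) in F53F8.7 had 73.9, with 24.0 in replicate 1 and 49.5 in replicate 2. All 5 had a summit in both replicate lists.

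The distance rule had little to decide in the IDR-thresholded list. The occupied members farthest from their summit were T04D3.t2 in gcy-35, which encodes a soluble guanylyl cyclase, at 91 bp and F47G6.t1 in spe-15, which encodes a myosin, at 78 bp. The nearest members outside the rule were H08J11.t2 in ajm-1 at 274 bp, T06H11.t3 in unc-58 at 287 bp and K11H3.t1 in twk-48 at 290 bp. Each of these 3 had an occupied neighbour in the same host, to which the summit was closer: H08J11.t3, T06H11.t2 and K11H3.t2.

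Most IDR-thresholded summits at members sat on the tRNA gene itself. Measured along the strand of the tRNA gene from its 5′ end, the median summit position was 18 bp for the 75 members inside protein-coding genes (−78 to 162), against 19 bp (−193 to 217) for the 94 not inside. Of the 75, 52 lay within the gene, 17 upstream and 6 downstream, while of the 94 not inside, 48 lay within, 25 upstream and 21 downstream. With the strongest peaks of replicate 2 alone, the median for members inside protein-coding genes was 36 bp, over 73 occupied members. With those of replicate 1 alone, it was 19 bp, over 68 occupied members. The interval of the 18 bp median, 12 to 36 bp, covers counting error over genes and no spread between libraries. Whether the place of the summit depends on the library was not tested. At the 96 members with a summit in the pooled list but not in the IDR-thresholded one, 33 lay within the gene, 41 upstream and 22 downstream, with a median of 11 bp.

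**Figure D3:**
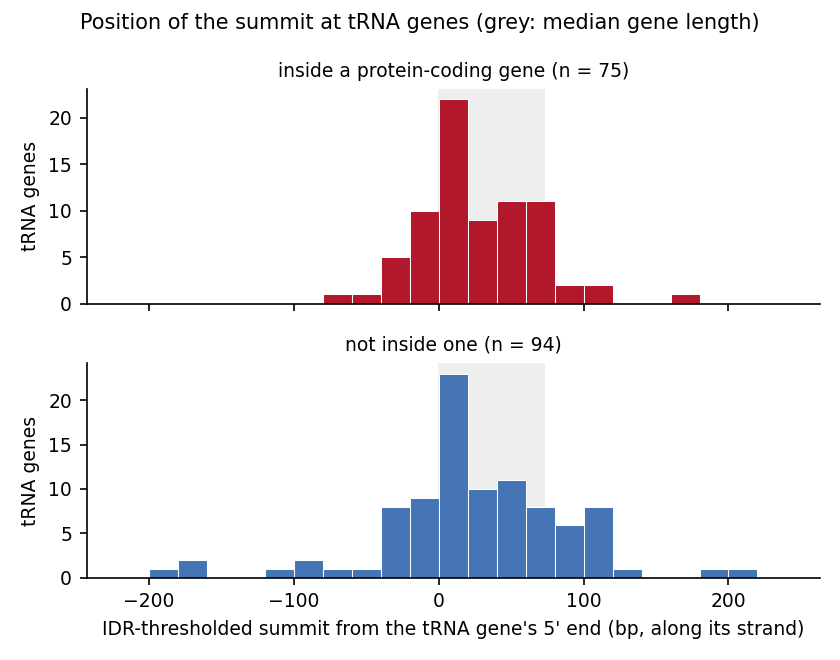
Position of the nearest IDR-thresholded summit relative to the 5′ end of the tRNA gene, in bp along its strand (horizontal), as numbers of tRNA genes per 20-bp bin (vertical), for 75 genes inside a protein-coding gene (top) and 94 not inside one (bottom); grey marks the median gene length of 73 bp. In both panels the highest bar is the first 20 bp of the gene, and the medians are 18 and 19 bp.

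The promoter elements within the gene were nearly as frequent with a summit as without. On the sense strand, the B box core occurred in 72 of the 75 occupied members, in 122 of the 124 found in relaxed lists only and in 85 of the 91 found in no list. The A box core occurred in 63 of 75, 102 of 124 and 78 of 91, and TTTT within 30 bp after the gene in 75 of 75, 124 of 124 and 89 of 91. Flanks of the same length held the B box core in 4 of 290 cases and the A box core in 46 of 290. Among tRNA genes not inside a protein-coding gene, the B box core occurred in 90 of the 94 with an IDR-thresholded summit and in 111 of the 118 in no list. A missing match says only that these letters were not found.

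Identical genes had different outcomes. The 290 members held 120 distinct gene sequences, and 42 sequences were shared by 2 or more members. Of these 42 families, 30 mixed members with and without an IDR-thresholded summit, 2 had one at every member and 10 at none. In 19 families, 1 or more members had an IDR-thresholded summit while another, with the same bases, was in no list, as with the glutamine and threonine genes shown above.

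The sequence just upstream varied with the outcome. The 100 bp before the tRNA gene had a median GC content of 48% at the 75 occupied members, 43% at the 124 found in relaxed lists only and 37% at the 91 found in no list, and the corresponding medians were 46%, 41% and 35% for tRNA genes not inside a protein-coding gene. By GC class, 20 of the 38 members with over 50% had an IDR-thresholded summit (52.6%, interval 37.3 to 67.5), 45 of 126 with over 40 to 50% (35.7%, 27.9 to 44.4), 9 of 101 with over 30 to 40% (8.91%, 4.76 to 16.1), and 1 of 25 with up to 30% (4%, 0.710 to 19.5). The share thus rose with each class. In the tRNA genes not inside a protein-coding gene, the shares in the same order of classes were 50%, 42.4%, 16.1% and 2.5%.

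Farther away the medians were closer. From 100 to 200 bp upstream the median was 38% at occupied members, 38% at those in relaxed lists only and 38% at those in no list, and from 400 to 500 bp it was 35%, 38% and 37%. In the 100 bp after the gene it was 34%, 32% and 30%. These windows were chosen after the first values were seen. Upstream GC content was also compared within the 19 families of identical genes with an occupied member and one in no list. Its median was higher at the occupied members in 16, lower in 2 and equal in 1. The median difference was 8.5 percentage points (−6.5 to 22). Many of these family medians rest on a single gene, as in the proline family with the widest gap, 51% against 29%. The glutamine pair shown above had 50% at R04A9.t1 and 40% at H08J11.t4, and the threonine pair 49% at ZK563.t1 and 34% at R04D3.t5. These gaps were wider than those of the family medians, 44% against 39% for glutamine and 49% against 41.5% for threonine. Whether base composition affects the peak calls was not tested.

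**Figure D4:**
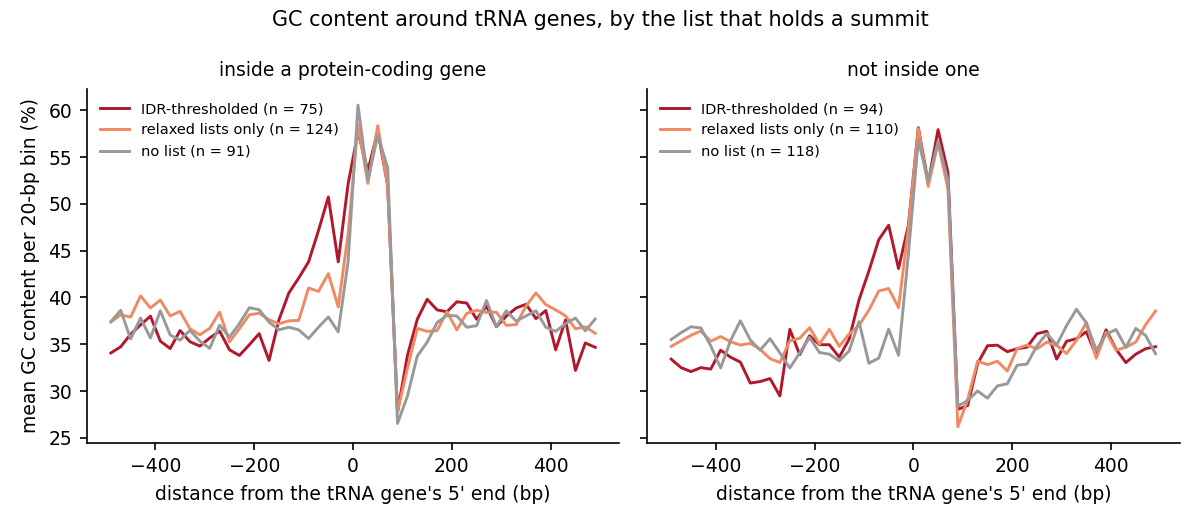
Mean GC content in 20-bp bins (vertical, percent) by distance from the 5′ end of the tRNA gene along its strand (horizontal, bp), for genes with an IDR-thresholded summit (dark red), in relaxed lists only (orange) and in no list (grey), inside a protein-coding gene (left) and not inside one (right). The curves lie close together over the gene and part most in the 100 bp upstream, where the dark red curve is highest and the grey one lowest in both panels. Smaller gaps lie outside that stretch. In the left panel, dark red and grey stand at 42.1% and 36.5% at −110 bp, and at 39.8% and 35.2% at 150 bp.

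The short sequence CTCTC, on either strand, was found within 60 bp upstream of 36 of the 75 occupied members (48.0%), 19 of the 124 in relaxed lists only (15.3%) and 10 of the 91 in no list (11.0%). It was chosen after upstream sequences had been compared, so these counts are a description. In tRNA genes not inside a protein-coding gene, which are a separate set of loci but had been looked at as well, it was found at 43.6% of the 94 with an IDR-thresholded summit, 15.5% of the 110 in relaxed lists only and 5.93% of the 118 in no list. In windows of the same length from 400 to 460 bp upstream, it occurred at 5 of the 75 occupied members (6.67%), 7 of the 124 (5.65%) and 5 of the 91 (5.49%). The printed sequences were not picked for this word, and their share of it is not that of the members: R04D3.t5, which was in no list, holds it, and 39 of the 75 occupied members do not.

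Repeated sequence bears on where short reads can be placed, so it was counted. A gene sequence found once among all nuclear tRNA genes had an IDR-thresholded summit at 10 of 68 members (14.7%), against 65 of 222 (29.3%) for sequences with copies. Among tRNA genes not inside a protein-coding gene these counts were 15 of 75 (20%) and 79 of 247 (32.0%). Where at least 90% of the 36-base words within 200 bp occurred once in the genome, 15 of 77 members were occupied (19.5%), against 60 of 213 (28.2%) elsewhere, while among tRNA genes not inside a protein-coding gene the order was the other way, with 25 of 81 (30.9%) against 28.6% of the others. Among the 77 members, the upstream GC content had medians of 50% at the 15 occupied, 42% at the 26 in relaxed lists only and 36% at the 36 in no list, the same order as over all members. No source used here says how reads with several matches were handled, and their part in the counts was not tested.

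Members of every isotype with 2 or more genes named by RefSeq included occupied ones. Glycine was the most frequent isotype, with 6 of 27 members occupied, followed by lysine with 3 of 26 and proline with 2 of 22. Proline tRNA genes not inside a protein-coding gene were occupied at 10 of 20, and lysine at 8 of 20, so both shares were lower inside (9.09%, interval 2.53 to 27.8, for proline and 11.5%, 4.0 to 29.0, for lysine) than not inside (50%, 29.9 to 70.1, for proline and 40%, 21.9 to 61.3, for lysine). Asparagine ran the other way, with 5 of 12 inside and 1 of 8 not inside, as did histidine with 3 of 7 and 1 of 13 and glutamine with 4 of 12 and 1 of 15. These isotypes were picked after their counts were seen, from 21, and no difference was tested.

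**Figure D5:**
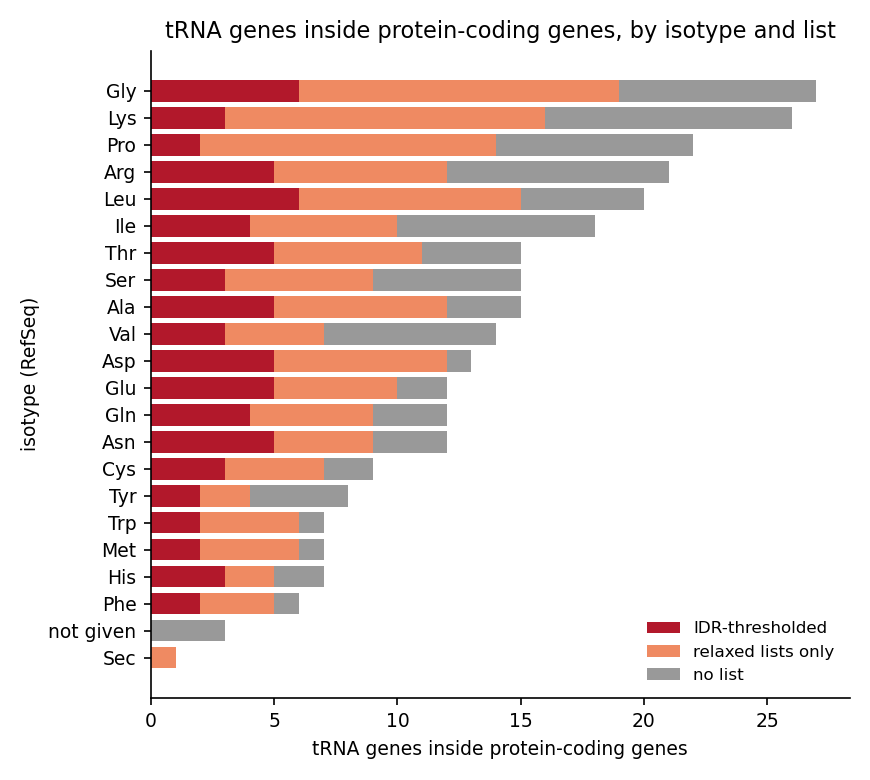
Number of tRNA genes inside protein-coding genes (horizontal) by isotype in RefSeq (vertical), divided into those with an IDR-thresholded summit (dark red), in relaxed lists only (orange) and in no list (grey). Lysine and proline have 26 and 22 members with short dark red segments of 3 and 2, and asparagine and glutamate have 5 of 12 each.

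On the X chromosome 25 of 96 members were occupied (26.0%, interval 18.3 to 35.6), against 50 of 194 (25.8%, 20.1 to 32.4) on the autosomes. Single autosomes ran from 8 of 48 on chromosome V (16.7%, 8.70 to 29.6) to 11 of 34 on chromosome IV (32.4%, 19.1 to 49.2), with overlapping intervals. Genes transcribed opposite to the host were occupied at 33 of 123 (26.8%, interval 19.8 to 35.3) and those in the same direction at 42 of 167 (25.1%, 19.2 to 32.2).

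Hosts with several tRNA genes showed how close neighbours differed. ajm-1, which encodes a protein of apical junctions, held 5 glutamine tRNA genes, of which H08J11.t3 was occupied with a signal of 79.3, H08J11.t1 and H08J11.t5 were near a shared relaxed summit of 29.7 in the pooled list, and H08J11.t2 and H08J11.t4 were in no list. K01A12.3 held 5 tRNA genes, of which 0 were occupied and 3 were in relaxed lists, where the cysteine genes K01A12.t2 and K01A12.t4 shared a pooled summit of 53.1. In brd-1, the worm BARD1 homologue, the lysine gene K04C2.t3 was occupied with 141, while the glycine genes K04C2.t1 and K04C2.t2 shared a replicate 1 summit of 24.4. The degenerin channel gene deg-1 and the kinase gene nimk-1 had 3 tRNA genes each and 0 occupied. Relaxed lists held a summit at 1 of those in deg-1 and 2 of those in nimk-1.

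Genes of RNA polymerase III transcription and of tRNA maturation or export, SNAP complex genes among them, were looked up as a list of 20. An IDR-thresholded summit lay in the promoter window of 0 of the 20, and of 3.29% of all protein-coding genes; in a list of this size, a count of 0 is close to that share. In the pooled relaxed list 7 of the 20 had one, beside 23.5% of all protein-coding genes, and the difference was not tested. The highest pooled signal was 74.1 at mafr-1, the homologue of the polymerase III repressor MAF1, followed by 64.5 at rpac-19, a subunit shared by polymerases I and III, 49.6 at rtcb-1, the tRNA ligase, 49.4 at snpc-1.2 and 29.1 at snpc-1.1, subunits of the SNAP complex, 35.5 at rpc-1, the largest subunit of polymerase III, and 28.8 at xpo-3, the tRNA exporter. The other 13 had none in either list.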

How the data were processed

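Chromatin immunoprecipitation sequencing was carried out on 2 biological replicates of 1 group, each a relaxed peak list, with a pooled relaxed list and an IDR-thresholded list, all on ce11. Per the deposited file notes, relaxed peaks were called from each replicate's alignments and 1 control file. Aligner, caller, IDR cutoff and the handling of reads with several matches: not given in the sources used here. Read depth is unknown, so intervals cover counting error over genes only. The signal value of each peak was computed by the authors and used as deposited, within a list. The deposited −log10 q values were not used, nor were lists on ce10.

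Summits were matched to tRNA genes of Ensembl release 115 within 200 bp, in Python 3.11.15 with pandas 2.3.3, numpy 2.4.6 and scipy 1.17.1, and the matching was tested on simulated data. Isotypes were read from RefSeq, where all 612 genes have the same span as in Ensembl, and no peak ended beyond its chromosome. Members were named by rank: the 20 with the highest IDR-list signal, those nearest to the 200 bp limit, the 5 with the highest pooled signal without an IDR-thresholded summit, and 5 hosts with 3 or more. The polymerase III list, the members and the rules were chosen with earlier results of these data known. No test was made, since there is no second condition. The alternatives changed the distance, the peak list, the annotation of the host and the copy number of the gene.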

Additional observations from a re-analysis of the deposited data

How the results depend on the processing

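Values were recomputed under 70 alternatives, of which 50 were classed as near the main value, by its counting interval or a wider spread allowed for a count. That spread let some counts shift visibly. The count in any list, 199, was 152 with the strongest 5000 peaks of each relaxed list and 234 within 500 bp. The count in both replicate lists, 138, was 103 and 156 under the same settings. The 20 that moved take subsets of genes or peaks, so their counts fall by construction, whereas the shares and the median signal need not; the cause of the shifts in these was not tested. With the 411 strongest peaks of the IDR-thresholded list, 44 members were occupied (15.2%), the share of tRNA genes not inside was 18.6% and the median signal of occupied members was 163. Of the 75 occupied members, 42 had a host on the same strand and 33 on the opposite strand; 10 had a sequence occurring once (14.7% of such members) and 15 had at least 90% unique 36-mers (19.5%). For any list the counts were 112, 87, 32 and 41 in these 4 subsets, and for both replicate lists 78, 60, 17 and 27. The median summit offset, 18 bp, was 36 bp without replicate 1, 19 bp without replicate 2 and 31 bp at members with at least 90% unique 36-mers. With the strongest 2000 peaks of each relaxed list, 120 members had a summit in any list and 81 in both replicate lists. The median signal without a replicate was not computed, since the signal of the replicate lists is not on the scale of the IDR-thresholded list. No paired analysis was possible because there is 1 group of 2 replicates and no test. Depth is unknown, so a missing summit does not show that a gene was unbound.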

Other observations

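The tryptophan tRNA genes hold the amber suppressor loci of worm genetics, and 7 lay inside protein-coding genes. sup-5 and sup-7 were occupied, with signals of 229 and 122 in the IDR-thresholded list; sup-7 had 58.0 in replicate 1 and 64.6 in replicate 2. sup-28 and sup-33, both in the receptor tyrosine kinase gene trk-1, had relaxed summits only, with pooled signals of 62.2 and 30.4. rtw-6 had 30.7 and Y95B8A.t1 had 33.2 in the pooled list, and F49C5.t1 in nimk-1 was in no list. These genes were chosen after their values were seen.

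The selenocysteine tRNA gene K11H12.t1, a single-copy gene, had a relaxed summit only, with a signal of 51.8 in the pooled list, 22.4 in replicate 1 and 27.1 in replicate 2. Of the 6 members in an untranslated exon of their only host, 3 were occupied: C28G1.t1, K02D7.t1 in grl-26 with a signal of 111, and Y69A2AR.t2 in mdf-2 with 81.9. Their share, 50%, had an interval of 18.8 to 81.2, which covers the 25.9% of all members. The other 3, K04A8.t2, F02E11.t1 and Y54G2A.t1, had pooled relaxed summits of 73.5, 63.5 and 33.9. The 3 members to which RefSeq gives no isotype were in no list.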
